A study of Mus musculus with 14 samples.

Results

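Disease-associated microglia genes are the genes by which a reactive state of microglia, the resident macrophages of the brain, is recognised in degenerating and injured tissue. The set was a list of 33 mouse genes linked to that state, and a gene was used where the array had a row annotated to its symbol alone. That held for 32 of the 33 genes, out of 19938 genes in all. Spp1, which encodes osteopontin, had no such row and was not analysed here.

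The state was described in mouse models of neurodegeneration, where microglia around amyloid plaques or myelin debris lower their homeostatic genes and raise genes of phagocytosis, lysosomal digestion and lipid handling. TREM2, a surface receptor that binds lipids and lipoproteins, signals through the adaptor TYROBP and the kinase SYK, and mice without it form the full state poorly. Apolipoprotein E, lipoprotein lipase and the fatty acid binding proteins carry and store the lipid taken up from dying cells and myelin.

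Microglia were sorted from the ipsilateral cortex of C57BL/6J males that were 12 to 14 weeks old, and their total RNA was hybridised to Affymetrix Mouse Gene 1.0 ST arrays. The operated mice had a middle cerebral artery blocked by a filament for 15 min, followed by 72 h of reperfusion (ischaemia and reperfusion, I/R), and the comparison mice had sham surgery. The 4 groups were TLR4-/- I/R (n = 3, arrays B to D), wild-type I/R (arrays A to D, n = 4), TLR4-/- sham (arrays A, B and D, n = 3) and wild-type sham (arrays A to D, n = 4). TLR4-/- mice lack Toll-like receptor 4, a receptor for bacterial lipopolysaccharide and for some products of damaged tissue. Neither the sort markers nor the design of the allele is given in the sources used here. Whether the arrays of a group came from different animals is also not stated, and p-values then cover only the spread among these arrays, in part possibly technical.

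Values are log2 signals after RMA (robust multi-array average), and differences between groups are log2 fold changes. Array medians lay between 4.93 and 5.12. RMA gives no detection call, so the 95th percentile of 1027 olfactory receptor genes, 4.67, stood in for background, and the mean of 12533 of the 19938 genes (62.9%) exceeded it. Precision is limited by how many arrays each group has. The Tlr4 row averaged 8.02 ± 0.39 in TLR4-/- I/R arrays and 8.30 ± 0.15 in wild-type I/R arrays (SD, n = 3 and 4), and 8.32 ± 0.16 in TLR4-/- sham arrays against 8.78 ± 0.15 in wild-type sham arrays. Neither difference passed the test (adjusted p = 0.634 and 0.92), and since the deleted stretch is not given, the genotype is used as labelled. Of 8 microglial markers fixed for the sorted cells, 7 were measured, and their array means were 10.72 to 10.84 on TLR4-/- I/R arrays and 10.67 to 10.87 on wild-type I/R arrays, against 11.06 to 11.14 on TLR4-/- sham arrays and 11.04 to 11.12 on wild-type sham arrays. The surgeries did not overlap in this mean. At an adjusted p under 0.05 in limma, 3 of the 7 markers fell after I/R in TLR4-/- and 5 in wild type. By the same test 3.13% of all genes fell in TLR4-/- and 3.63% in wild type. Over all genes, all 3 TLR4-/- I/R arrays and all 4 wild-type sham arrays had a higher mean correlation with the other genotype after the same surgery than with their own group. The gap was widest for TLR4-/- I/R array D (r of 0.991 with wild-type I/R against 0.987 with its own group) and wild-type sham array C (0.989 with TLR4-/- sham against 0.985), so counts are also given without this pair of arrays.

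Of the 32 measured genes, 17 were called higher after I/R in both genotypes, and none passed the test as lower. In TLR4-/- microglia 18 of 32 genes (56.2%) rose, against 5.04% of all 19938 genes called higher (3.13% were called lower), and their median log2 fold change was 0.81 against -0.03 over all genes. In wild-type microglia 21 of 32 (65.6%) rose, against 6.15% of all genes (3.63% were called lower), with a median of 0.95 against -0.06. A gene was called at an adjusted p under 0.05 in limma, with Benjamini-Hochberg adjustment over all 19938 genes. Without wild-type sham array C and TLR4-/- I/R array D, 17 genes were called higher in each genotype. Apoe then lost its call in both genotypes, and Aplp2, Cd63 and Cd83 lost theirs in wild type. At least 2-fold rises among the called genes numbered 15 in TLR4-/- and 16 in wild-type microglia, and this fold cut was not applied to all genes. The RNA was that of whole sorted samples, in which fewer cells of a type and less RNA per cell cannot be told apart.

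**Figure D1:**
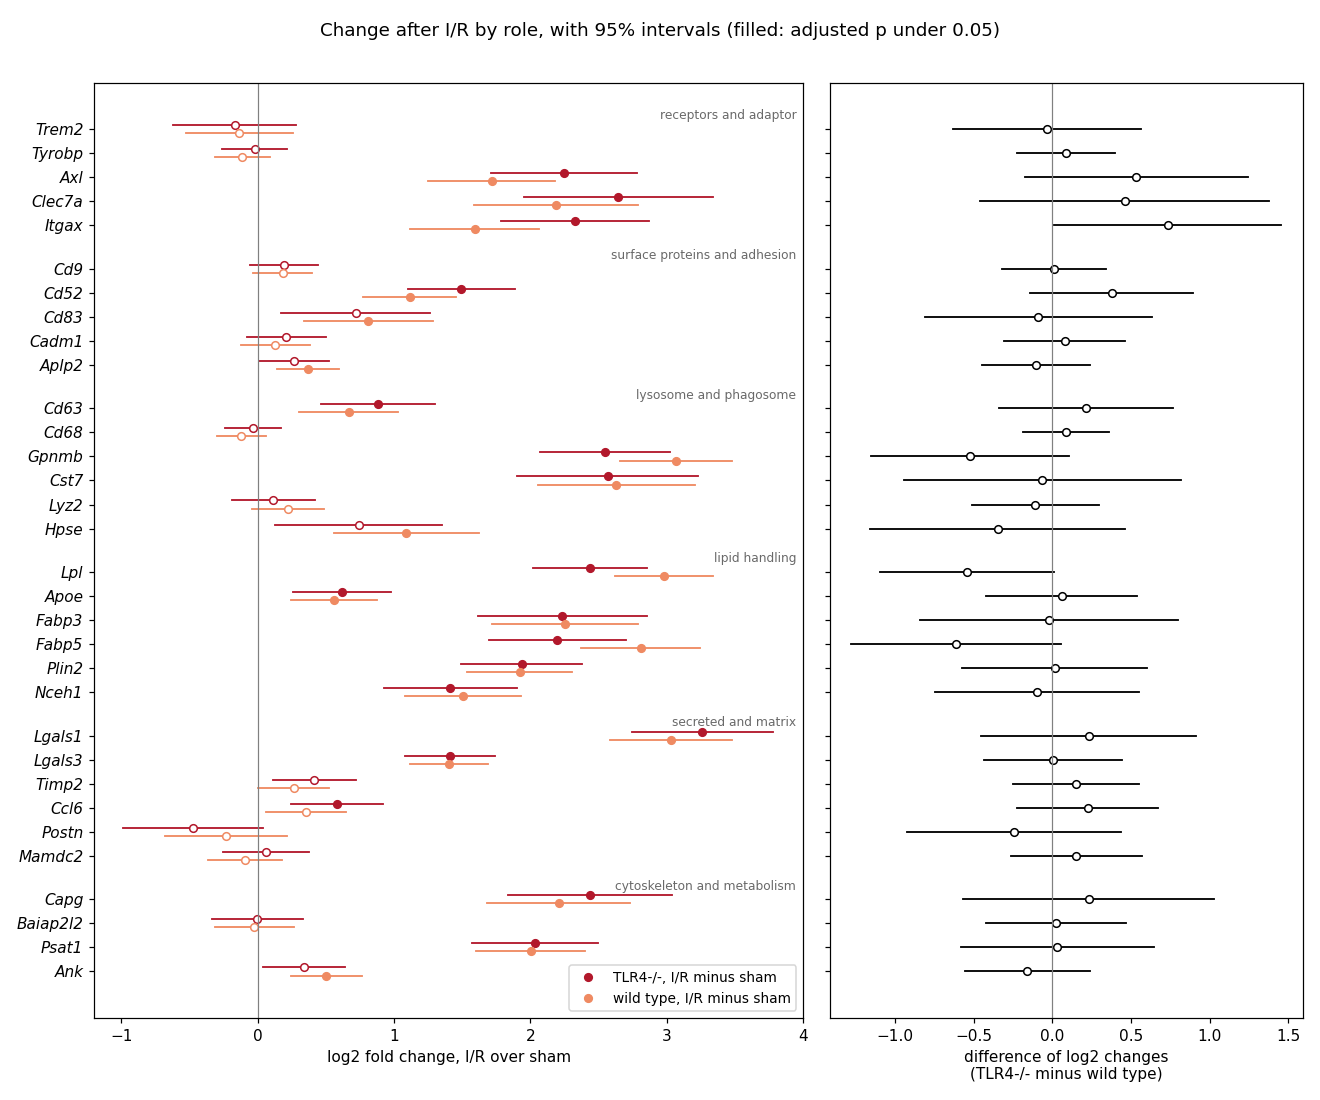
Left, log2 fold change of I/R over sham with its 95% interval for each of the 32 genes, grouped by role, in TLR4-/- (dark red) and wild-type (orange) microglia, with filled points for genes at an adjusted p under 0.05. Right, the TLR4-/- change minus the wild-type change with its 95% interval. All 6 genes of lipid handling are filled in both genotypes, Trem2 and Tyrobp lie near 0, and no point on the right is filled.

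The genes called higher in both genotypes numbered 17 and were Axl, Clec7a, Itgax, Cd52, Cd63, Gpnmb, Cst7, Lpl, Apoe, Fabp3, Fabp5, Plin2, Nceh1, Lgals1, Lgals3, Capg and Psat1. A further 4 passed the test in wild type and not in TLR4-/- (Cd83, Aplp2, Hpse and Ank), and Ccl6 passed it in TLR4-/- and not in wild type. None of them passed the test of the difference between the genotypes' changes. The remaining 10 genes, Trem2, Tyrobp, Cd9, Cadm1, Cd68, Lyz2, Timp2, Postn, Mamdc2 and Baiap2l2, passed in neither genotype. How many of all genes passed in both genotypes, or in 1 alone, was not counted. In TLR4-/- all I/R arrays lay above all sham arrays for 21 genes, among them Cd9, Timp2 and Ank, which were not called, and the same held for 11.1% of all genes. None of the 32 lay wholly below sham there, as 12.5% of all genes did. In wild type 19 genes lay wholly above sham, against 7.78% of all genes, and 1, Cd68, wholly below it, against 7.83%.

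Among the receptors and their adaptor, Trem2 and Tyrobp passed the test in neither genotype, while the other 3 of 5 genes rose in both. Trem2 had signals of 9.34, 9.55 and 10.16 in TLR4-/- I/R arrays, against 9.68, 10.10 and 9.77 in TLR4-/- sham arrays. In wild type Trem2 had 9.71, 9.96, 9.66 and 9.71 after I/R, against 9.75, 10.11, 9.46 and 10.25 after sham. The groups overlapped in both genotypes, and array D of TLR4-/- I/R lay above all 3 TLR4-/- sham arrays. The log2 fold change was -0.17 ± 0.21 (SE) in TLR4-/- (adjusted p = 0.743) and -0.13 ± 0.18 in wild type (adjusted p = 0.722), with 95% intervals from -0.62 to 0.28 and from -0.52 to 0.26. Tyrobp, the membrane adaptor that passes on the TREM2 signal, had 11.81, 11.83 and 11.93 in TLR4-/- I/R arrays, against 11.97, 11.81 and 11.86 in TLR4-/- sham arrays. Wild-type I/R arrays had 11.75, 11.65, 11.74 and 11.81 for Tyrobp, against 11.76, 11.73, 11.87 and 12.04 in wild-type sham arrays. These groups overlapped too, and the changes were -0.02 ± 0.11 in TLR4-/- and -0.11 ± 0.10 in wild type (adjusted p = 0.947 and 0.54).

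Axl, a receptor tyrosine kinase of the TAM family that binds GAS6 on dying cells, had 7.70, 7.70 and 7.95 in TLR4-/- I/R arrays, against 5.48, 5.95 and 5.18 in TLR4-/- sham arrays. In wild type the Axl signals were 6.87, 7.69, 7.58 and 7.87 after I/R, against 6.22, 5.70, 5.32 and 5.90 after sham. Every I/R array lay above every sham array, and wild-type I/R array A was the lowest of the I/R arrays. Axl rose by 2.25 ± 0.25 in TLR4-/- (adjusted p = 1.65e-05) and by 1.72 ± 0.22 in wild type (adjusted p = 4.56e-05). For Clec7a, which encodes the beta-glucan receptor dectin-1, TLR4-/- I/R arrays had 8.93, 9.24 and 8.42, against 5.83, 6.40 and 6.42 in TLR4-/- sham arrays. Wild-type arrays had 8.27, 8.76, 8.39 and 8.91 after I/R, against 7.00, 6.64, 5.35 and 6.59 after sham, where array C stood lowest. Clec7a was the receptor with the largest change, 6.25-fold in TLR4-/- and 4.55-fold in wild type (adjusted p = 4.64e-05 and 5.33e-05), and its groups did not overlap. Itgax encodes CD11c, an integrin chain by which reactive microglia are often sorted. It had 7.63, 8.29 and 8.27 in TLR4-/- I/R arrays, against 5.22, 6.03 and 5.98 in TLR4-/- sham arrays, and 7.22, 7.59, 7.66 and 8.15 in wild-type I/R arrays, against 6.16, 6.41, 5.70 and 6.00 in wild-type sham arrays. Itgax rose 5.01-fold in TLR4-/- and 3.01-fold in wild type (adjusted p = 1.32e-05 and 0.000126), again without overlap.

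**Figure D2:**
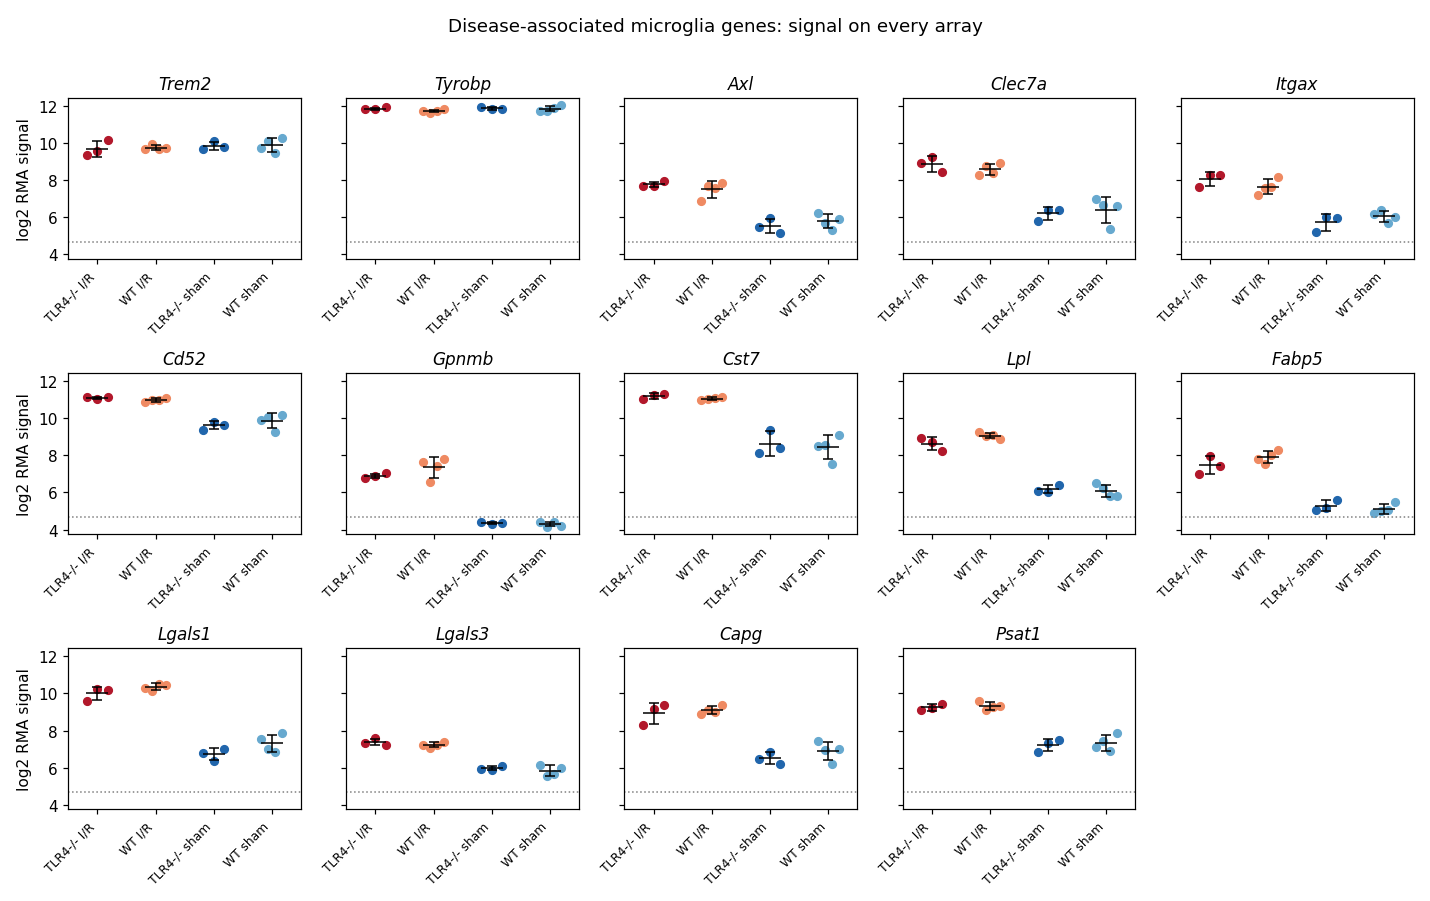
Log2 RMA signal of 14 genes on every array in TLR4-/- I/R, wild-type I/R, TLR4-/- sham and wild-type sham microglia, with the mean and SD of each group in black and the background percentile of 4.67 as a dotted line. Trem2 and Tyrobp overlap between surgeries, the other 12 genes have every I/R array above every sham array of the same genotype, and Gpnmb lies under the dotted line in both sham groups.

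The promoters of 3 of these receptors are shown, those of Axl and Itgax, which rose in both genotypes, and of Trem2, which passed in neither. The motifs searched include those of PU.1, a lineage factor of macrophages, and of AP-1, a factor induced by many stimuli. The sequences are the 250 bases before the RefSeq start on the gene's own strand, in assembly GRCm38.p6, at chr7:25788734-25788983 (minus strand) for Axl, chr7:128129300-128129549 (plus strand) for Itgax and chr17:48346151-48346400 (plus strand) for Trem2. Capitals mark GAGGAAG (PU.1) or TGANTCA (AP-1) read on either strand.
Axl: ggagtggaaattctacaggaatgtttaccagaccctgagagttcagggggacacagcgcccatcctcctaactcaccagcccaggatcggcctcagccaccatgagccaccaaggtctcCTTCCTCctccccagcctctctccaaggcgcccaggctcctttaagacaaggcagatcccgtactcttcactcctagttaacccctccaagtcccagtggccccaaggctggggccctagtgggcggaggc
Itgax: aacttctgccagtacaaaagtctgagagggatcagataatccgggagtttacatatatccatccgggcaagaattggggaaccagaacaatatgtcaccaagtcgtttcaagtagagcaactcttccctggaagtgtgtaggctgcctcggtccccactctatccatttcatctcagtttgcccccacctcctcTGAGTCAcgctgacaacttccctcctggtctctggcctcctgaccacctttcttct
Trem2: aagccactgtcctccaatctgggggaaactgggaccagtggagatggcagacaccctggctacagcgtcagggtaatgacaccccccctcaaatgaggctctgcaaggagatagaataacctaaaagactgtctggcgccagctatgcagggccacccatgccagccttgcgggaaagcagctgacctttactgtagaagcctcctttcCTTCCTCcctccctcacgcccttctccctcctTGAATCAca
The match in Axl lies 131 bases before the start and is of the PU.1 type, and that in Itgax lies 56 bases before it and is of the AP-1 type. Trem2 holds a match to both patterns, at 41 (PU.1) and 9 (AP-1) bases before its start. The AP-1 pattern allows any middle letter, and its match reads TGAATCA in Trem2 but TGAGTCA in Itgax. Clec7a, which also rose in both genotypes, is not shown, and its RefSeq windows held 0 matches to the motifs searched. A rise thus did not go with a match in every receptor. RefSeq windows were matched by symbol for 24 of the 33 listed genes. GAGGAAG was in a window of 5 of these 24 genes (20.8%: Axl, Cd63, Nceh1, Spp1 and Trem2), against 12% of all 27025 genes with a window, and TGANTCA in 3 of 24 (12.5%: Cd68, Itgax and Trem2), against 7.82%. The E-box of the lysosomal MiT/TFE factors, CACGTG, was in 1 of 24 (4.17%, Nceh1), against 6.86%, and the related M-box TCACATGA in 1 of 24 (4.17%, Fabp3), against 0.984%. A match is a description of letters, and binding was not measured.

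Of the 5 surface and adhesion proteins, 1 rose in TLR4-/- and 3 in wild type. Cd52, a short GPI-anchored glycoprotein of leukocytes, had 11.14, 11.05 and 11.14 in TLR4-/- I/R arrays, against 9.39, 9.82 and 9.65 in TLR4-/- sham arrays. Its wild-type signals were 10.86, 10.96, 10.995 and 11.10 after I/R, against 9.92, 10.09, 9.27 and 10.17 after sham. All I/R arrays were above all sham arrays and the I/R arrays were close together. Cd52 rose by 1.49 ± 0.19 in TLR4-/- and by 1.12 ± 0.16 in wild type (adjusted p = 4.83e-05 and 0.000173). Cd83, a marker of activated antigen-presenting cells, averaged 9.35 ± 0.45 in TLR4-/- I/R arrays and 8.63 ± 0.25 in TLR4-/- sham arrays, a change of 0.72 that did not pass (adjusted p = 0.108). In wild type Cd83 averaged 9.32 ± 0.39 after I/R and 8.52 ± 0.38 after sham, and it rose by 0.81 (adjusted p = 0.029) with overlapping groups. Aplp2, an amyloid precursor-like protein, had a log2 difference of 0.27 in TLR4-/- (adjusted p = 0.232) and rose by 0.37 in wild type (adjusted p = 0.0362). Cd83 lost its wild-type call in 7 of the 22 alternative settings (adjusted p from 0.0503 to 0.0926), among them the removal of sham array A, B or C or of any I/R array but B. Aplp2 lost its call in 8 of 22 (0.0503 to 0.109), among them the removal of sham array A, C or D or, again, of any I/R array but B. Cd9, a tetraspanin, had changes of 0.19 in TLR4-/- and 0.18 in wild type, and Cadm1, an adhesion molecule, 0.21 and 0.13 in the same genotypes, none of which passed (adjusted p from 0.315 to 0.57).

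Of 6 genes of the lysosome and phagosome, 3 rose in TLR4-/- and 4 in wild type, and the largest rises were those of Gpnmb and Cst7. Gpnmb, a transmembrane glycoprotein of lysosomes and melanosomes, had 6.81, 6.86 and 7.03 in TLR4-/- I/R arrays, against 4.39, 4.32 and 4.35 in TLR4-/- sham arrays. The wild-type signals were 7.63, 6.55, 7.45 and 7.83 after I/R, against 4.41, 4.17, 4.40 and 4.21 after sham. All sham arrays lay within background and all I/R arrays above it, with wild-type I/R array B the lowest. Set against the background percentile of 4.67, Gpnmb was at least 4.70-fold higher in TLR4-/- and at least 6.48-fold higher in wild type, and the fitted log2 fold changes were 2.55 ± 0.23 and 3.07 ± 0.20 (adjusted p = 1.29e-06 and 1.4e-08). Cst7 encodes cystatin F, an inhibitor of lysosomal cathepsins. It had 11.02, 11.27 and 11.31 in TLR4-/- I/R arrays, against 8.12, 9.38 and 8.41 in TLR4-/- sham arrays, and 10.96, 11.06, 11.09 and 11.12 in wild-type I/R arrays, against 8.52, 8.55, 7.55 and 9.10 in wild-type sham arrays. The I/R arrays spanned a narrow range while the sham arrays were spread, with TLR4-/- sham array B and wild-type sham array D high and wild-type sham array C low. Cst7 rose 5.92-fold in TLR4-/- and 6.18-fold in wild type (adjusted p = 4.1e-05 and 4.25e-06).

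Cd63, a tetraspanin of late endosomes, rose by 0.88 ± 0.20 in TLR4-/- and by 0.67 ± 0.17 in wild type (adjusted p = 0.00935 and 0.019). The call was lost in TLR4-/- without sham array A (adjusted p = 0.0526), and in wild type without I/R array B or without both arrays that stood apart (adjusted p from 0.0516 to 0.056). Hpse encodes heparanase, which cuts heparan sulfate. It averaged 5.44 ± 0.40 in TLR4-/- I/R arrays against 4.70 ± 0.44 in TLR4-/- sham arrays, a change of 0.74 that did not pass (adjusted p = 0.146), and rose by 1.09 in wild type (adjusted p = 0.00929), where the sham mean of 4.55 was within background and the rise over the background percentile was at least 1.95-fold. Cd68, a lysosomal membrane glycoprotein widely used to stain phagocytic microglia, averaged 11.72 ± 0.04 in TLR4-/- I/R arrays and 11.76 ± 0.03 in TLR4-/- sham arrays. Its wild-type means were 11.64 ± 0.03 after I/R and 11.76 ± 0.07 after sham. The changes of -0.04 and -0.12 did not pass (adjusted p = 0.895 and 0.429), although the 4 wild-type I/R arrays all lay below the sham arrays. Lyz2, lysozyme, had log2 differences of 0.11 in TLR4-/- and 0.22 in wild type (adjusted p = 0.748 and 0.322).

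All 6 genes of lipid handling rose in both genotypes, with a median log2 fold change of 2.07 in TLR4-/- and 2.09 in wild type. Lpl, lipoprotein lipase, which frees fatty acids from triglyceride-rich lipoproteins, had 8.92, 8.73 and 8.23 in TLR4-/- I/R arrays, against 6.11, 6.04 and 6.43 in TLR4-/- sham arrays. In wild type it had 9.27, 9.02, 9.07 and 8.90 after I/R, against 6.49, 6.22, 5.81 and 5.83 after sham. The surgeries were separated by more than 1 log2 unit in both genotypes, and TLR4-/- I/R array D was the lowest of the I/R arrays. Lpl rose by 2.44 ± 0.20 in TLR4-/- (adjusted p = 4.9e-07) and by 2.98 ± 0.17 in wild type (adjusted p = 5.18e-09). Fabp5, an intracellular fatty acid carrier, had 7.00, 7.98 and 7.44 in TLR4-/- I/R arrays, against 5.06, 5.16 and 5.61 in TLR4-/- sham arrays. Wild-type arrays had 7.78, 7.55, 8.01 and 8.30 for Fabp5 after I/R, against 4.89, 5.00, 5.05 and 5.47 after sham. No I/R array reached down to a sham array, and the lowest I/R array was B of TLR4-/-. The Fabp5 rise was 4.58-fold in TLR4-/- and 7.00-fold in wild type (adjusted p = 1.09e-05 and 6.3e-08).

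The other fatty acid carrier, Fabp3, averaged 7.28 ± 0.10 in TLR4-/- I/R arrays and 5.05 ± 0.42 in TLR4-/- sham arrays (SD, n = 3 each), and 7.30 ± 0.62 in wild-type I/R arrays against 5.04 ± 0.34 in wild-type sham arrays (SD, n = 4 each). It rose by 2.23 in TLR4-/- and 2.25 in wild type (adjusted p = 8.5e-05 and 1.06e-05). Fabp3 and Fabp5 each have a second row on the array, and the means of these rows were also higher after I/R than after sham in both genotypes. Plin2, which coats lipid droplets, rose 3.82-fold in TLR4-/- and 3.79-fold in wild type (adjusted p = 1.1e-05 and 1.43e-06). Nceh1, a hydrolase of stored cholesteryl esters, rose 2.66-fold and 2.84-fold in the same genotypes (adjusted p = 0.000824 and 7.12e-05). Apoe, the lipoprotein ligand made by glia, had the smallest change of the group. It averaged 10.65 ± 0.08 in TLR4-/- I/R arrays and 10.03 ± 0.23 in TLR4-/- sham arrays, and 10.75 ± 0.17 in wild-type I/R arrays against 10.19 ± 0.32 in wild-type sham arrays. The rises of 0.62 and 0.56 (adjusted p = 0.0344 and 0.0232) were lost in 7 of 22 alternative settings in TLR4-/- (adjusted p from 0.0665 to 0.161) and in 5 of 22 in wild type (0.0527 to 0.085). Single arrays whose removal ended the call were I/R B, C and D and sham A and D in TLR4-/-, and I/R C and sham A, B and C in wild type.

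Of 6 measured secreted and matrix proteins, 3 rose in TLR4-/- and 2 in wild type, and both galectins were among them. Lgals1, galectin-1, a lectin for beta-galactoside sugars, had 9.57, 10.25 and 10.17 in TLR4-/- I/R arrays, against 6.79, 6.38 and 7.03 in TLR4-/- sham arrays. The wild-type values were 10.30, 10.11, 10.53 and 10.46 after I/R, against 7.53, 7.02, 6.86 and 7.87 after sham. The lowest I/R array was more than 1 log2 unit above the highest sham array. Lgals1 rose 9.59-fold in TLR4-/- and 8.17-fold in wild type (adjusted p = 2.15e-07 and 3.72e-08), the largest fitted fold of the 32 genes in TLR4-/-. Lgals3, galectin-3, which binds damaged lysosomes and has been reported as a TREM2 ligand, had 7.34, 7.58 and 7.22 in TLR4-/- I/R arrays, against 5.91, 5.89 and 6.11 in TLR4-/- sham arrays. In wild type Lgals3 had 7.23, 7.07, 7.24 and 7.39 after I/R, against 6.14, 5.52, 5.67 and 6.00 after sham. The surgeries did not overlap, and Lgals3 rose by 1.41 ± 0.16 in TLR4-/- and 1.40 ± 0.14 in wild type (adjusted p = 1.41e-05 and 1.9e-06).

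Ccl6, a chemokine of mouse myeloid cells, rose by 0.58 ± 0.16 in TLR4-/- (adjusted p = 0.0335) with a log2 difference of 0.36 ± 0.14 in wild type (adjusted p = 0.128). Its call in TLR4-/- was lost in 5 of 22 alternative settings (adjusted p from 0.0582 to 0.113), the removal of I/R array C or D or of any of the 3 sham arrays, and its wild-type change passed without wild-type sham array A (adjusted p = 0.0372). Timp2, an inhibitor of matrix metalloproteinases, had log2 differences of 0.42 in TLR4-/- and 0.26 in wild type (adjusted p = 0.0906 and 0.214), and it passed in TLR4-/- without sham array B (adjusted p = 0.0178). Postn, periostin, a matrix protein, had the most negative values of the set, -0.47 in TLR4-/- and -0.23 in wild type, and did not pass (adjusted p = 0.294 and 0.56). Mamdc2, a proteoglycan-like secreted protein, lay within background in all 4 groups, with means from 2.97 to 3.06.

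Among the 4 genes of the cytoskeleton and of metabolism, 2 rose in TLR4-/- and 3 in wild type. Capg, which caps the ends of actin filaments in macrophages, had 8.28, 9.17 and 9.35 in TLR4-/- I/R arrays, against 6.48, 6.83 and 6.19 in TLR4-/- sham arrays. It had 8.91, 9.08, 9.02 and 9.40 in wild-type I/R arrays, against 7.43, 6.93, 6.21 and 7.02 in wild-type sham arrays. Array B of TLR4-/- I/R was the lowest I/R array and still lay above every sham array. Capg rose 5.41-fold in TLR4-/- and 4.61-fold in wild type (adjusted p = 2.44e-05 and 9.89e-06). Psat1, an enzyme of serine synthesis, had 9.08, 9.22 and 9.46 in TLR4-/- I/R arrays, against 6.85, 7.32 and 7.48 in TLR4-/- sham arrays. The wild-type Psat1 signals were 9.61, 9.11, 9.27 and 9.30 after I/R, against 7.09, 7.45, 6.88 and 7.85 after sham. Again no I/R array overlapped a sham array, and the rise was 4.09-fold in TLR4-/- and 4.004-fold in wild type (adjusted p = 1.04e-05 and 1.43e-06). Ank, an exporter of pyrophosphate, had a log2 difference of 0.34 in TLR4-/- (adjusted p = 0.177) and rose by 0.50 in wild type (adjusted p = 0.0146), a call that was lost without wild-type I/R array D (adjusted p = 0.0581). Baiap2l2, a membrane-bending I-BAR protein, had log2 differences of -0.0023 in TLR4-/- and -0.02 in wild type (adjusted p = 0.996 and 0.942), and its group means lay between 5.01 and 5.25, above the background percentile.

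For the difference of the changes after I/R between the genotypes, no gene of the set and none of all 19938 genes passed the test in limma (0%). At an unadjusted p under 0.05 it picked out 762 of all 19938 genes and 1 of the 32, a count that is no result about the set. The 1 gene of the set was Itgax, whose change was larger in TLR4-/- by 0.73 ± 0.34 (95% interval 0.01 to 1.45, unadjusted p = 0.0462, adjusted p = 1). The differences next in order of p ran the other way, with smaller changes in TLR4-/- for Lpl (-0.54, interval -1.10 to 0.01), Fabp5 (-0.61, interval -1.28 to 0.05) and Gpnmb (-0.52, interval -1.15 to 0.11), all at an adjusted p of 1. For Gpnmb both sham groups lay within background, so its changes are lower bounds and its difference of changes is a fitted value only. Of the 17 genes called in both genotypes, 11 had the larger estimate in TLR4-/- and 6 in wild type, a split that was not tested. The median difference, TLR4-/- minus wild type, was 0.0184 over the 32 genes and 0.0161 over all genes. For 8 of the 32 genes the 95% interval of the difference held a 2-fold difference between the genotypes, so differences of that size lie within the error for these genes.

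Set directly against each other, the genotypes had no called gene of the set in either surgery. After I/R, 0.0201% of all genes (4 genes) were called between TLR4-/- and wild type, and after sham 0.00502% (1 gene). At an unadjusted p under 0.05 in limma, 2 of the 32 genes were picked out after I/R, as were 1689 of all 19938 genes. After sham 1 of the 32 was picked out, as were 1045 of all 19938. These counts are no result about the set. After I/R the 2 genes were Gpnmb, at 6.90 ± 0.12 in TLR4-/- against 7.36 ± 0.56 in wild-type arrays, and Lpl, at 8.63 ± 0.36 in TLR4-/- against 9.07 ± 0.16 in wild-type arrays (adjusted p = 0.583 and 0.566). After sham the gene was Lgals1, at 6.74 ± 0.33 in TLR4-/- against 7.32 ± 0.46 in wild-type arrays (adjusted p = 0.92). The TLR4-/- and wild-type I/R arrays did not overlap for 2 of the 32 genes, Tyrobp and Cd68 (log2 differences of 0.12 and 0.08, adjusted p = 0.749 and 0.8), while 9.34% of all genes did not overlap, so the count is no result about these genes. After sham the genotypes overlapped for all 32 genes, and 5.50% of all genes did not overlap.

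The mean over the 32 genes separated the surgeries on every array. It lay between 8.70 and 8.89 on TLR4-/- I/R arrays and between 8.77 and 8.98 on wild-type I/R arrays, against 7.52 to 7.71 on TLR4-/- sham arrays and 7.44 to 7.85 on wild-type sham arrays. Individual arrays tended to be high or low for many of the genes at once. Wild-type sham array C was the lowest of its group for 12 of the 17 genes called in both genotypes, TLR4-/- I/R array B for 10 of 17 and TLR4-/- sham array A for 9 of 17, and wild-type I/R array D was the highest of its group for 11 of 17. The genes measured on an array share its RNA and hybridisation, so these counts describe the arrays and carry no test.

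**Figure D3:**
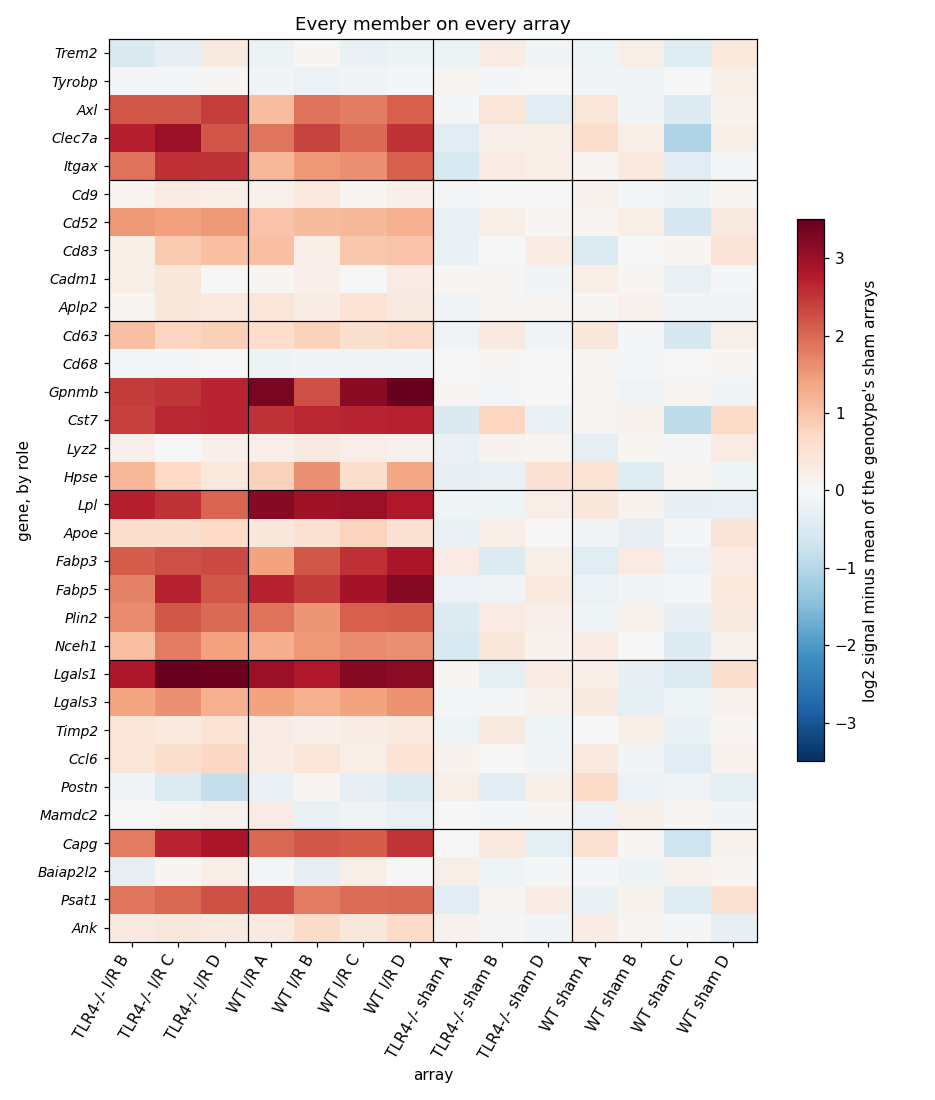
Log2 signal of each of the 32 genes on each of the 14 arrays, minus the mean of the sham arrays of the same genotype (red above, blue below), with TLR4-/- I/R, wild-type I/R, TLR4-/- sham and wild-type sham arrays from left to right and genes by role. Wild-type sham array C is blue for Clec7a, Cst7, Capg and Cd52, and TLR4-/- I/R array B is paler than C and D for Capg, Lgals1 and Fabp5.

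Some of the other reported disease-associated genes, listed apart from the 32, also rose, and none passed the test as lower. Of 36 measured genes (40 listed), 14 rose and 22 were not called in TLR4-/- microglia (5.04% of all genes were called higher). In wild type 16 rose and 20 were not called (6.15% of all genes were called higher). The 3 of smallest p in wild type were Ch25h, Lilrb4a and Rai14. Ch25h, a cholesterol hydroxylase, averaged 8.12 ± 0.23 in TLR4-/- I/R arrays against 3.70 ± 0.56 in TLR4-/- sham arrays, and 8.39 ± 0.49 in wild-type I/R arrays against 3.62 ± 0.18 in wild-type sham arrays. Both sham means were within background, so the rise was at least 10.9-fold in TLR4-/- and at least 13.2-fold in wild type. Lilrb4a, an inhibitory immunoglobulin-like receptor, rose by 2.70 in TLR4-/- and 2.36 in wild type (adjusted p = 3.59e-08 and 7.26e-09). Rai14, an actin-binding ankyrin protein, rose by 2.44 and 2.24 in the same genotypes (adjusted p = 4.69e-07 and 1.02e-07).

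The called genes of TREM2 signalling and shedding were mostly lower. Of 23 measured genes (24 listed), none rose and 5 fell in TLR4-/- (3.13% of all genes were called lower), and 2 rose and 4 fell in wild type (6.15% of all genes were called higher and 3.63% lower), with median changes of -0.18 and -0.14. Syk, the kinase recruited by TYROBP, fell by 0.53 in TLR4-/- and by 0.47 in wild type (adjusted p = 0.0481 and 0.0357). Inpp5d, the phosphatase SHIP1 that opposes this signal, fell by 0.46 in TLR4-/- and by 0.35 in wild type (adjusted p = 0.0187 and 0.032). Cd33, an inhibitory sialic acid receptor, fell by 0.53 in TLR4-/- and by 0.44 in wild type (adjusted p = 0.0316 and 0.0315). Ms4a6d had a log2 difference of 0.31 in TLR4-/- (adjusted p = 0.16) and rose by 0.38 in wild type (adjusted p = 0.0326). Vav3 had means within background in both TLR4-/- groups and in wild-type sham arrays, and against the background percentile it was at least 1.17-fold higher after I/R in wild type (adjusted p = 0.0448).

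Of 11 measured genes of apolipoprotein E and sterol efflux (14 listed), 1 rose and 1 fell in TLR4-/-, and 1 rose and 2 fell in wild type. Over all genes 5.04% were called higher and 3.13% lower in TLR4-/-, and 6.15% and 3.63% in wild type. As 1 of 11 is 9.09%, counts this small are no result about the list. Apoc1, an apolipoprotein gene next to Apoe, averaged 6.42 ± 0.07 in TLR4-/- I/R arrays against 4.28 ± 0.25 in TLR4-/- sham arrays, and 6.43 ± 0.23 in wild-type I/R arrays against 4.20 ± 0.23 in wild-type sham arrays. Its sham means were within background, so it was at least 3.38-fold higher in each genotype. Mylip, the ubiquitin ligase that degrades the LDL receptor, fell by 0.55 in TLR4-/- and by 0.50 in wild type (adjusted p = 0.00485 and 0.00266). Rxra, the partner of the liver X receptors, had a log2 difference of -0.30 in TLR4-/- (adjusted p = 0.319) and fell by 0.47 in wild type (adjusted p = 0.041).

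Homeostatic microglial genes moved the other way. Of 18 measured genes (20 listed), 11 fell and none rose in TLR4-/- (3.13% of all genes were called lower), with a median change of -0.48. In wild type 14 fell and none rose (3.63% of all genes were called lower), with a median change of -0.47. The 3 of smallest p in wild type were P2ry13, a purinergic receptor, Tgfbr1, the type I receptor of TGF-beta, and Sall1, a transcription factor of microglial identity. They fell by 0.52, 0.57 and 0.73 in TLR4-/- and by 0.58, 0.58 and 0.64 in wild type (adjusted p from 0.00115 to 0.0118).

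Some but not all monocyte markers rose after I/R as well. Of 11 measured (14 listed), 6 rose in TLR4-/- and 7 in wild type (5.04% and 6.15% of all genes were called higher). In TLR4-/- 5 were not called and 3 of the 11 had a negative change. In wild type 4 were not called and 1 had a negative change. Array means of the monocyte markers were 6.36 to 6.40 on TLR4-/- I/R arrays and 6.38 to 6.88 on wild-type I/R arrays. On sham arrays they were 4.65 to 4.82 in TLR4-/- and 4.82 to 4.95 in wild type. Of the defining markers, Ccr2 averaged 5.55 ± 0.12 in TLR4-/- I/R arrays against 5.77 ± 0.25 in TLR4-/- sham arrays, and 6.34 ± 0.26 in wild-type I/R arrays against 5.94 ± 0.11 in wild-type sham arrays. It was called in neither genotype (adjusted p = 0.501 and 0.0763), although its wild-type I/R arrays all lay above the sham arrays. The markers that rose in both genotypes were Fn1, Vim, Ms4a4c, Plac8, Cd44 and S100a4. The seventh in wild type was Chil3 (adjusted p = 0.0249), whose means lay within background in all 4 groups while its highest wild-type I/R array reached 5.197. The part of these markers in the rises of the disease-associated genes was not tested. Neutrophil markers (11 of 11 measured) had group means from 4.13 to 4.24 and T and NK cell markers (9 of 10) from 3.68 to 3.85, both under the background percentile, but wild-type I/R array C averaged 4.84 for the neutrophil list. Within that list Csf3r had group means from 8.70 to 9.28 and fell in TLR4-/- (adjusted p = 0.0472), S100a9 reached 7.06 on 1 wild-type I/R array, and Cxcr2 passed as higher in wild type (adjusted p = 0.0436) with all means within background. Of the T and NK cell list, Cd3e and Cd8a had all group means above the percentile, and no gene was called. Markers of border-associated macrophages (10 of 10) had group means of 7.11 and 7.63 in TLR4-/- and wild-type I/R arrays, against 7.21 and 7.56 in TLR4-/- and wild-type sham arrays. Of these 10 markers, 1 was called lower in TLR4-/- and 1 higher in wild type after I/R. Over all genes 3.13% were called lower in TLR4-/- and 6.15% higher in wild type, so these counts are no result about the list.

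**Figure D4:**
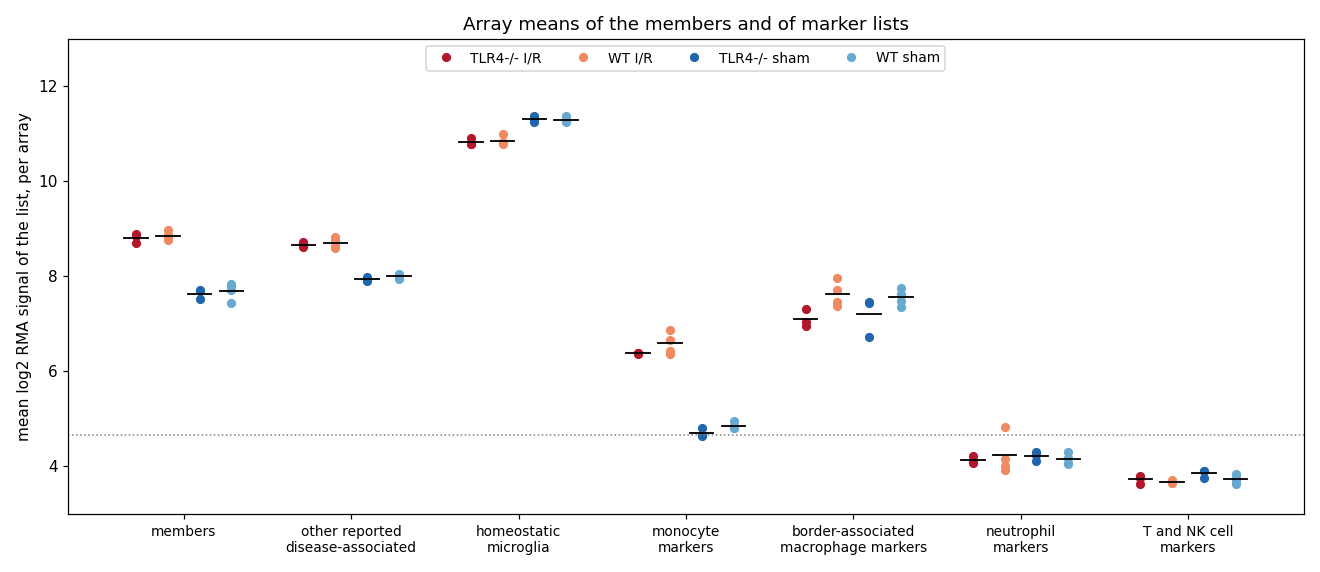
Mean log2 signal per array (points) and group mean (bars) of the 32 genes, of other reported disease-associated genes, of homeostatic genes and of marker lists, for TLR4-/- I/R, wild-type I/R, TLR4-/- sham and wild-type sham arrays. The 32 genes lie between 8.70 and 8.98 on I/R arrays and between 7.44 and 7.85 on sham arrays, homeostatic genes run the other way, and neutrophil and T and NK cell group means lie under the dotted background line at 4.67.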

How the data were processed

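The data were expression values of sorted microglia from 14 arrays in 4 groups. The authors made log2 values with RMA in the oligo package, per the submitters' processing notes, which give no version, and the deposited table holds 1 log2 value per array row and sample. Of its 35556 rows, 21789 carried 1 gene symbol in the platform annotation and 1621 carried several. For the 999 genes with several rows the row with the highest mean was used, which left 19938 genes. A model of 4 group means was fitted to all 14 arrays (limma 3.58.1, lmFit and eBayes, run in R 4.3.3, and tested on simulated data), with Benjamini-Hochberg adjustment over all genes and a call at an adjusted p under 0.05. There were 5 comparisons, namely I/R against sham within each genotype, the difference of these changes (TLR4-/- minus wild type) and TLR4-/- against wild type after each surgery.

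The genes, the other lists and the tests were chosen with earlier results of these data known. Every gene of the set is named. Values of every array are given for Trem2 and Tyrobp, for the 2 genes of each role with the largest mean change among those called in both genotypes, and for the 4 with the smallest p of the difference of changes. No gene of the set was called lower or called between the genotypes. Of the other lists, the 3 of smallest p in each direction in wild type are named. Alternatives were another centring, only the groups compared, trend and robust variance, array weights, the mean of a gene's rows, no dim genes, a replicate block, and arrays left out. Promoters are RefSeq's (GRCm38.p6), searched over 250 bases before the start on both strands.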

Additional observations from a re-analysis of the deposited data

Results flagged for a closer look

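For Cd83, wild-type I/R array B had a signal of 8.75, the lowest of its group, against 9.45 to 9.58 on the other wild-type I/R arrays. The gap to the next array was large for the range of 4 arrays. In all, 64 group values were tested in this way, 32 genes in each of the 2 groups of 4 arrays, of which chance flags about 1 in 20.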

How the results depend on the processing

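Of the 32 genes, 18 were called after I/R in TLR4-/- microglia, and 15 to 19 under the 22 alternatives (15 to 18 when 1 array was left out). In wild type 21 were called, and 17 to 21 under the alternatives (18 to 21 when 1 array was left out). The difference of changes and both genotype comparisons had 0 calls throughout. With the letters as a replicate block, 17 genes were called in TLR4-/- and 20 in wild type, and 0 in the other 3 comparisons. The block removed the calls of Apoe in TLR4-/- and of Aplp2 in wild type (adjusted p = 0.0855 and 0.0592). Over 18 same-letter pairs of arrays the deviations from the group means correlated between -0.099 and 0.281, with 3 pairs above 0.1. Of the 14 arrays, 7 matched their own letter best. These figures do not settle whether the letters pair the arrays. The main model used no pairing because the letters are not said to mark a shared animal or day. Of 3483 values of single genes by setting, 3443 stayed on their side of the threshold, 36 lost a call, 4 gained one and 0 called values changed sign. The lost calls were those of Aplp2, Cd83, Apoe, Cd63 and Ank in wild type and of Apoe, Ccl6 and Cd63 in TLR4-/-. Cd83 gained a call in TLR4-/- with array weights and without I/R array B (adjusted p from 0.0307 to 0.0488). Values that were not called were judged by size, and 161 of them changed sign while moving by less than 1 SD between arrays, none reaching a size over 0.31. The cause of these shifts was not tested. A signal within background, as for Mamdc2, limits what its values can show.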

Other observations

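Mouse genetics describes the disease-associated state in a TREM2-independent first step and a TREM2-dependent second step, and the genes of each were grouped here after their values had been seen, so the counts below are descriptive. Of the 7 genes of the first step (Tyrobp, Apoe, B2m, Ctsb, Ctsd, Fth1 and Lyz2), Apoe was the 1 gene called higher in each genotype (5.04% of all genes were called higher in TLR4-/- and 6.15% in wild type), and the median log2 fold change after I/R was -0.02 in TLR4-/- and -0.11 in wild type. Of the 12 genes of the second step, 8 rose in TLR4-/- (Axl, Clec7a, Itgax, Cst7, Lpl, Ccl6, Csf1 and Lilrb4a) and 7 in wild type (the same without Ccl6), with medians of 2.04 and 1.65. Ctsl, Cd9, Timp2 and Trem2 passed in neither genotype. Trem2 had log2 differences of -0.17 in TLR4-/- and -0.13 in wild type.

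Some growth factor genes and a mitochondrial gene of the wider list, chosen after their values were seen, rose as well. Csf1, a ligand of the receptor on which microglia depend for survival, rose by 1.84 ± 0.21 (SE) in TLR4-/- and 1.96 ± 0.18 in wild type (adjusted p = 2.08e-05 and 1.29e-06). Igf1, insulin-like growth factor 1, rose by 1.43 ± 0.22 in TLR4-/- and 1.78 ± 0.19 in wild type (adjusted p = 0.000477 and 6.65e-06). Cox6a2, a cytochrome c oxidase subunit best known from muscle, rose by 1.52 ± 0.11 in TLR4-/- and 1.26 ± 0.10 in wild type (adjusted p = 2.15e-07 and 1.31e-07). None of the 3 genes passed the test of the difference between the genotypes' changes.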
